A study of Mus musculus with 4 samples.

Results

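Nuclear receptors are transcription factors that are switched by small fat-soluble molecules. A ligand such as a retinoid, an oxysterol, a fatty acid, a glucocorticoid or vitamin D enters the cell, binds the receptor and changes which coregulators the receptor holds on DNA, and many receptors bind DNA as a pair with an RXR partner. Some, the orphan receptors, have no settled ligand and act through how much of them is made. In macrophages the family is known for cholesterol export (LXR), lipid uptake and storage (PPAR), restraint of inflammatory genes (the glucocorticoid receptor), rhythmic gene repression (REV-ERB) and fast stimulus-induced transcription (NR4A).

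The genes described are 30 nuclear receptor genes of the mouse, taken by symbol from rows of the deposited table whose platform annotation gives exactly 1 gene symbol, with the row of the highest mean used for each gene. Of the 30, 29 were found among 22180 genes of the table, and Nr1h2 was not analysed here. Only Nr3c2 had 2 transcript clusters, the second of which lay at 2.90 to 3.14 on the log2 scale and was not used.

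RNA came from dermal macrophages sorted from the ear skin of untreated adult C57Bl/6 mice of genotype Cx3cr1+/gfp, in which GFP stands in 1 allele of the fractalkine receptor gene and so reports its activity. The CX3CR1low and the CX3CR1bright subset were each measured on 2 Affymetrix arrays. All 4 samples share the strain, the reporter allele and the lack of treatment. Each sample pooled 3 to 6 mice, with 2 litters behind the replicates of each subset, so the spread between replicates is that between pools. The labels give no age beyond adult and no hour of collection.

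The arrays gave RMA values, log2 expression levels that are background-corrected and equalised between arrays, whose array medians ran from 3.65 to 3.68 and whose 75th percentiles ran from 5.44 to 5.52. A level near the median can be background, and because each probe set binds with its own strength, levels were compared between arrays and with the array median but not between genes. Cx3cr1, on which the cells were sorted, stood at 3.63 and 3.60 on the CX3CR1low arrays and at 8.42 and 8.44 on the CX3CR1bright arrays, a difference that the sort fixed. Of 14 macrophage markers 13 were measured, and all 13 stood above the median on all 4 arrays. Their mean level was 10.51 and 10.65 on the CX3CR1low arrays against 10.33 and 10.34 on the CX3CR1bright arrays. The mean was lower in CX3CR1bright for 9 of the 13 and higher for 4, with a median difference of -0.34. Markers of other cells were present too: the 11 keratinocyte markers measured had a mean level of 5.84 and 5.34 on the CX3CR1low arrays against 6.17 and 7.78 on CX3CR1bright replicates 1 and 2, and all 11 had the higher mean in CX3CR1bright. The summed linear level of those markers was 926 to 1327 in CX3CR1low and 1781 to 4199 in CX3CR1bright. The 10 fibroblast markers had means of 5.98 and 5.91 against 6.76 and 6.84, and the 9 dendritic cell markers 5.22 and 5.42 against 6.33 and 6.16. The 4 Langerhans cell markers measured had the widest median difference of these lists, 1.91, with means of 5.40 and 5.15 against 6.54 and 7.87. The 7 monocyte markers lay at 4.82 and 4.02 against 5.51 and 4.69. Mast cell and granulocyte markers lay at 5.61 and 5.78 against 5.46 and 5.47. The 8 T and NK cell markers measured lay at 4.10 and 4.01 against 4.95 and 4.15, highest on CX3CR1bright replicate 1. All 8 had the higher mean in CX3CR1bright. The part of these cells in any receptor difference below was not tested, and in sorted pools fewer cells of a type and less RNA per cell cannot be told apart.

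**Figure D1:**
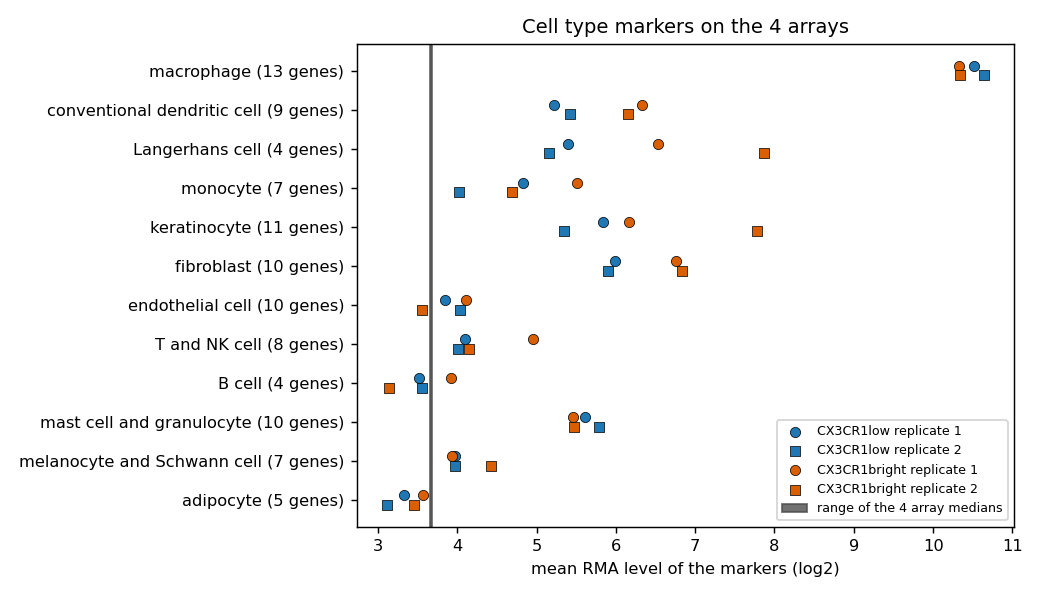
Mean RMA level (log2) of the measured markers of 12 cell types on each array; circles are replicates 1 and squares replicates 2, blue is CX3CR1low and orange CX3CR1bright, and the dark band is the range of the 4 array medians. Macrophage markers lay at 10.51 and 10.65 in CX3CR1low and at 10.33 and 10.34 in CX3CR1bright, while keratinocyte markers reached 7.78 on CX3CR1bright replicate 2.

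The stretch before the start sites of the NR4A family is shown first. None of its genes passed the threshold in the comparison of the subsets below. Nr4a1 (NUR77), Nr4a2 (NURR1) and Nr4a3 (NOR1) are immediate-early genes, made within minutes of many stimuli, and the cyclic AMP response element (CRE) is a known switch of this kind of gene. The 250 bases before each RefSeq start (GRCm38.p6) were searched on both strands for the CRE core. Its letters, TGACG, read CGTCA from the opposite strand. Matches are in capitals and the rest in lower case, 5′ to 3′ along the gene. Nr4a1 lies at chr15:101266596-101266845 on the plus strand, Nr4a2 at chr2:57124004-57124253 on the minus strand and Nr4a3 at chr4:48045055-48045304 on the plus strand.
Nr4a1: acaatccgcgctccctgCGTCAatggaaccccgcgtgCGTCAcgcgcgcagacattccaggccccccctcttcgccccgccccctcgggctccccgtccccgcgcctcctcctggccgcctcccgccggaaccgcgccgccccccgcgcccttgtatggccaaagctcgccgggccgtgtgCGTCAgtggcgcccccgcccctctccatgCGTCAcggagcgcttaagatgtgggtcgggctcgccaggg
Nr4a2: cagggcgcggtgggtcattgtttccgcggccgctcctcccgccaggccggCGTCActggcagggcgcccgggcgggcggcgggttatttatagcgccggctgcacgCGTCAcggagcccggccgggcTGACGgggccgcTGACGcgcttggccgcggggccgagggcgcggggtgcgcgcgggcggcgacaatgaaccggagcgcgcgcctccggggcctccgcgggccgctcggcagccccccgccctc
Nr4a3: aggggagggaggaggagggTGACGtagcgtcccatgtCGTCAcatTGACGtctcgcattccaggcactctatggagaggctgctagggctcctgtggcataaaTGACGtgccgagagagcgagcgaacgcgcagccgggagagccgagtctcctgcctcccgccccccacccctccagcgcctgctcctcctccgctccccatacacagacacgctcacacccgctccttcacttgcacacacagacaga

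Each of the 3 windows held 4 matches. Those nearest the start began 40 bases before it in Nr4a1, 111 in Nr4a2 and 147 in Nr4a3. Of 32851 RefSeq promoter windows of the same length, 17.8% held at least 1 match and 0.137% held 4 or more. The full palindrome TGACGTCA, which contains the core, was in 1.55% of windows and in none of those of the 27 members with a RefSeq window. Of these 27, 10 held at least 1 core in any of their windows. Some members have several windows, so this count of genes does not compare directly with the 17.8% of single windows. The matches describe letters in a window and say nothing of what binds there.

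Most of the listed receptors were above the array median in the dermal macrophages. On all 4 arrays 24 of the 29 stood above that array's own median, 82.8%, where 49.5% of all genes in the table did. The members were chosen with earlier results of these data known, so this excess partly reflects which receptors were listed. Of 16 other nuclear receptor genes measured, 1 was above the median on all 4 arrays. Thrb, a thyroid hormone receptor, stood above it on 3 arrays, at 3.93 and 4.15 in CX3CR1low and at 3.48 and 4.13 in CX3CR1bright. Rarb, a retinoic acid receptor, did so on 1 array, with levels of 3.56, 3.49, 3.80 and 3.51. Rxrg, Ppara and Rorb were above it on none, at 2.81 to 3.28, 3.14 to 3.46 and 2.83 to 3.04. By the mean over the arrays 25 members stood above the median, against 56.9% of all genes. By the same mean 16 stood above the 75th percentile: the 3 NR4A genes, Nr1d1, Nr1d2, Nr1h3, Ppard, Pparg, Rara, Rarg, Rxrb, Nr3c1, Vdr, Thra, Nr2c2 and Nr2f6. The share of all genes there by the mean was not counted. On all 4 arrays 15 of the 29 members stood above the 75th percentile, as did 6141 of the 22180 genes.

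**Figure D2:**
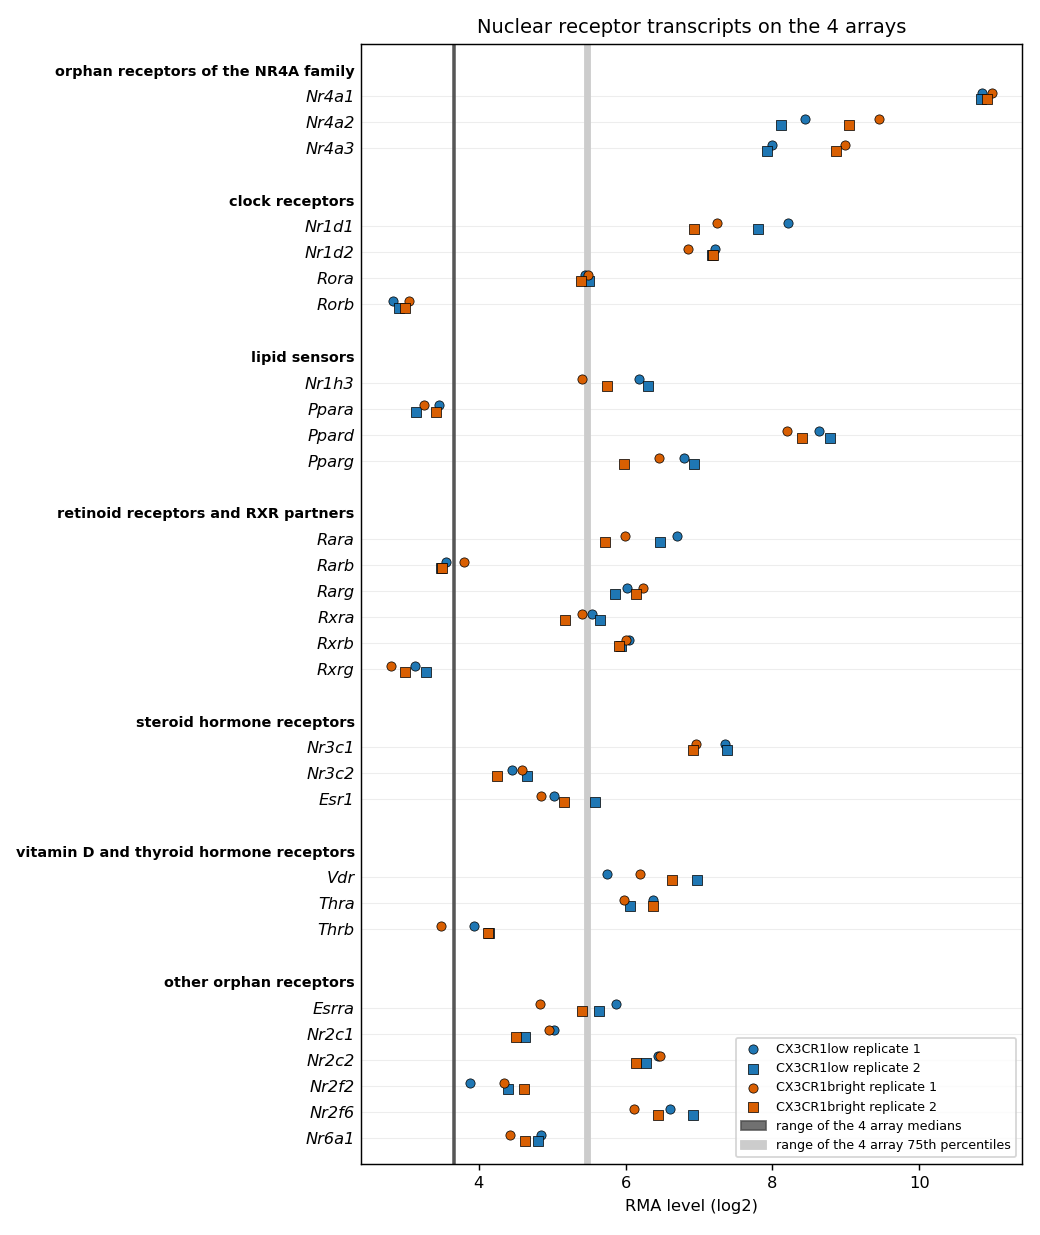
RMA level (log2) of the 29 receptor genes on each of the 4 arrays, grouped by role; circles are replicates 1, squares replicates 2, blue CX3CR1low and orange CX3CR1bright, with the ranges of the array medians (dark) and 75th percentiles (light). The points of Rxrg, Ppara and Rorb all lie below the median, and the colours do not overlap for 14 tested receptors, with the widest gaps between group means in Nr4a2, Nr4a3 and Nr1d1.

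The comparison of the subsets asks which receptors differ between CX3CR1bright and CX3CR1low macrophages. No receptor passed the threshold, an adjusted p of 0.05 in limma over the 13133 genes with at least 2 arrays above their own median. The smallest adjusted p was 0.103. The widest difference of a member was 0.97 log2 units. On the simulated data described below, 1.2% of genes given a log2 shift of 1 were called, so not passing does not show equal levels. Among all tested genes 18 passed, or 0.137%. Of the 29 members 25 were tested, 24 of them above the median on all 4 arrays. The other 4, Rarb, Rxrg, Ppara and Rorb, were too dim for a test. Differences are given as log2 units of CX3CR1bright minus CX3CR1low, each with its moderated SE, from n = 2 pools per subset.

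At an unadjusted p under 0.05 (limma), 2 members were on the higher side, Nr4a2 and Nr4a3, and 4 on the lower side, Nr1d1, Rara, Nr1h3 and Pparg. That is 8.0% and 16.0% of the tested members, where 7.03% and 11.8% of all tested genes stood there, so the higher share was near the background and the lower share rested on 4 genes. After cyclic loess the split over all genes was 1190 higher and 1114 lower in place of 923 and 1544, and that of the members 2 and 3. Levels did not overlap between the subsets for 4 members on the higher side and 10 on the lower side, 16.0% and 40.0%, against 18.9% and 31.5% of all tested genes. The same 14 of 25 members also had a difference larger than the gap between replicates in each subset, which can hold only without overlap. That share was not counted over all tested genes, so it adds no separate support. The median difference was -0.18 over the members and -0.07 over all tested genes. These medians were -0.10 and 0.02 after cyclic loess and -0.05 and -0.12 with the stricter filter, which kept 15 members. Without CX3CR1low replicate 1 they were -0.28 and -0.08. Negative differences made up 19 of 25, or 76.0%, against 57.5% of all tested genes, but 15 of 25 after quantile normalization and after cyclic loess.

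**Figure D3:**
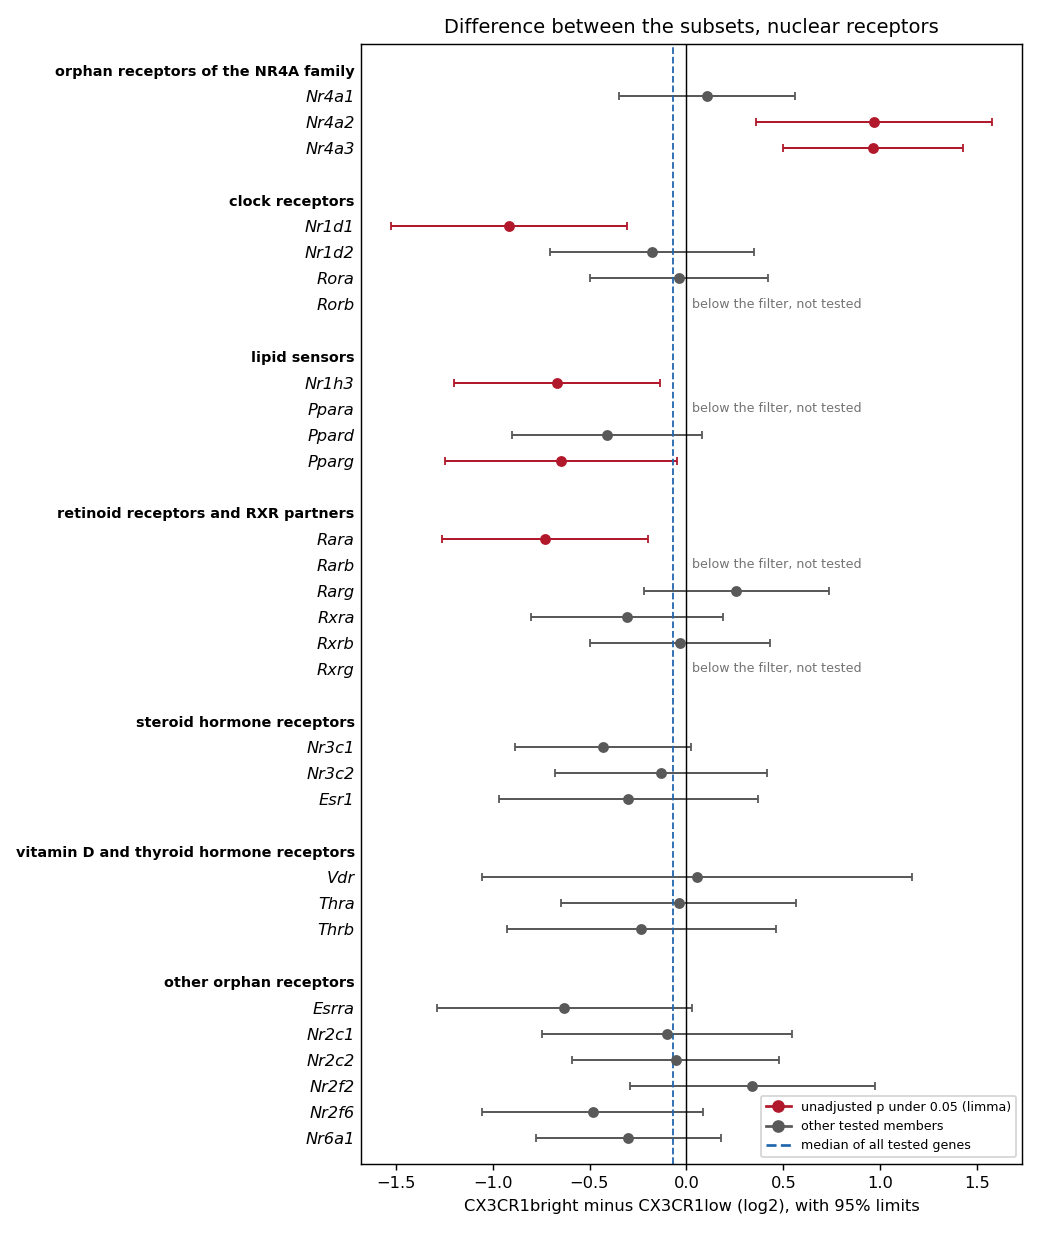
Difference CX3CR1bright minus CX3CR1low (log2) of the 25 tested receptors with 95% limits of the moderated fit, grouped by role; red marks an unadjusted p under 0.05 (limma), the solid line is 0 and the dashed line the median of all tested genes, -0.07. The limits of 6 receptors do not include 0, Nr4a2 and Nr4a3 to the right and Nr1d1, Rara, Nr1h3 and Pparg to the left.

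The NR4A receptors are orphan receptors that bind DNA in monomers or pairs and respond to their own induction. Nr4a3 (transcript cluster 17413945) stood at 7.9986 and 7.93 in CX3CR1low and at 8.98 and 8.87 in CX3CR1bright. Both CX3CR1bright levels lay above both CX3CR1low levels, and replicates of a subset lay 0.07 and 0.12 apart. The difference was 0.96 ± 0.18 (SE), a ratio of 1.95, with an adjusted p of 0.103 and 95% limits of 0.50 to 1.43. Nr4a2 (cluster 17385374) stood at 8.45 and 8.11 against 9.45 and 9.05, again without overlap. Its difference was 0.97 ± 0.24 (SE), a ratio of 1.96 (limma, adjusted p = 0.147), with limits of 0.36 to 1.58. Nr4a1 (cluster 17315178) did not overlap between the subsets either, but its difference was smaller: it stood at 10.86 and 10.84 against 10.9956 and 10.92, a difference of 0.10 ± 0.18 with limits of -0.35 to 0.56. Whether Nr4a1 differs from its paralogs in this respect was not tested.

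The calls of Nr4a3 and Nr4a2 depended on the set of genes fitted and the variance model. With only genes above the 75th percentile of all 4 arrays, both passed (limma, adjusted p = 0.0264 for Nr4a3 and 0.0477 for Nr4a2), and under an intensity trend Nr4a3 did (limma, adjusted p = 0.0375). Leaving out single arrays gave 0.90 to 1.02 for Nr4a3 and 0.77 to 1.17 for Nr4a2. The lower ends came without CX3CR1bright replicate 1 and the upper ends without CX3CR1bright replicate 2. The part of other cells in these values was not tested.

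Other immediate-early genes, among them the AP-1 subunits of the Fos and Jun families, were read from a list of 22. Of the 21 measured, all 21 were above the median on all 4 arrays, and 0 passed the threshold (limma). At an unadjusted p under 0.05 (limma), 1 was on the higher and 4 on the lower side, 4.76% and 19.0%. Over all tested genes these shares were 7.03% and 11.8%. The list's median difference was -0.17. It became -0.12 with quantile-normalized and -0.07 with loess-normalized values. Jund stood at 8.21 and 8.07 in CX3CR1low and at 7.09 and 6.78 in CX3CR1bright, a difference of -1.20 ± 0.21 (limma, adjusted p = 0.0935). Jun differed by -0.69 ± 0.18 and the macrophage regulator gene Klf4 by -0.69 ± 0.23. Ier2 alone of the 4 with the smallest p went the way of Nr4a2 and Nr4a3, by 0.65 ± 0.19.

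REV-ERB alpha (Nr1d1) and beta (Nr1d2) are repressors of the circadian clock that compete with the activating ROR receptors for the same DNA elements. Nr1d1 (cluster 17268884) stood at 8.21 and 7.80 in CX3CR1low and at 7.25 and 6.93 in CX3CR1bright. The groups did not overlap, and replicates lay 0.42 and 0.32 apart. The difference was -0.92 ± 0.24 (SE), a ratio of 1.89, with limits of -1.52 to -0.31 (limma, adjusted p = 0.155). Its paralog Nr1d2 stood at 7.21 and 7.18 against 6.84 and 7.19, where the second CX3CR1bright pool lay within the CX3CR1low range, and differed by -0.18 ± 0.21. Rora, at 5.40 to 5.51 on the 4 arrays, differed by -0.04 ± 0.18, with limits of -0.50 to 0.42 and the opposite sign after quantile normalization and cyclic loess.

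In the RefSeq gene models Nr1d1 overlaps Thra, its neighbour, which encodes a thyroid hormone receptor. Thra stood at 6.38 and 6.05 in CX3CR1low and at 5.97 and 6.38 in CX3CR1bright, a difference of -0.04 ± 0.24 with limits of -0.65 to 0.56. The overlapping neighbour therefore did not show the separation of subsets seen for Nr1d1. Their probe positions were not used here.

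Of 18 clock genes 15 were measured and tested, and 0 passed the threshold (limma). At an unadjusted p under 0.05 (limma), 1 was on the higher and 3 on the lower side, 6.67% and 20.0%. Over all tested genes these shares were 7.03% and 11.8%. Dbp, a transcription factor of the clock output, stood at 5.79 and 5.46 against 4.83 and 4.30, a difference of -1.06 ± 0.26 (limma, adjusted p = 0.144). Ciart, a repressor of the CLOCK-BMAL1 activator, differed by -0.80 ± 0.19 (limma, adjusted p = 0.135) and Per3 by -0.57 ± 0.20 (limma, adjusted p = 0.227). Nfil3, a repressor that opposes Dbp at shared sites and is itself repressed by REV-ERB alpha, stood at 7.74 and 7.76 against 8.20 and 8.21, a difference of 0.45 ± 0.18 (limma, adjusted p = 0.265). The list's median was -0.20 over 15 genes, and of the opposite sign, 0.09, over the 7 that the stricter filter kept, 5 of them positive. The E-box CACGTG, the site of CLOCK-BMAL1, was in 6.02% of all 250-base windows. Among the members with a window, 2 of 27 held it in any of their windows, Rara, which has 4 windows, and Thrb, which has 2. This count of genes does not compare directly with the share of single windows.

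The lipid sensors bind oxysterols (LXR) and fatty acids (PPAR). All 3 tested members lay below both CX3CR1low levels on both CX3CR1bright arrays, as 31.5% of all tested genes did, and none passed the threshold. Nr1h3 (LXR alpha, cluster 17388177) stood at 6.18 and 6.31 in CX3CR1low and at 5.41 and 5.75 in CX3CR1bright. The difference was -0.67 ± 0.21 (SE), with limits of -1.20 to -0.14 (limma, adjusted p = 0.192). Pparg (cluster 17461942), the PPAR of fat storage and alternative activation, stood at 6.79 and 6.93 against 6.46 and 5.97. CX3CR1bright replicate 2 was the lowest, and the difference of -0.65 ± 0.24 (limma, adjusted p = 0.236) was -0.40 without that array. Ppard stood at 8.64 and 8.79 against 8.20 and 8.40, a difference of -0.41 ± 0.19 with limits of -0.90 to 0.08.

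Of 16 LXR target genes 13 were tested, 0 passed (limma), and 0 were on the higher and 4 on the lower side at an unadjusted p under 0.05. Over all tested genes 11.8% stood on that lower side. Negative differences were found in 10 of 13, or 9 after cyclic loess, against 57.5% of all tested genes, with a median of -0.30. Abcg1, which exports cholesterol to lipoproteins, stood at 8.34 and 8.70 in CX3CR1low and at 7.56 and 7.35 in CX3CR1bright, a difference of -1.07 ± 0.22 (limma, adjusted p = 0.111). Smpdl3a, a phosphodiesterase, differed by -0.87 ± 0.23, the phospholipid transfer protein gene Pltp by -0.78 ± 0.20 and Lpcat3, which remodels membrane phospholipids, by -0.61 ± 0.23. Smpdl3a differed by less, -0.50, when all its transcript clusters were averaged. With quantile-normalized values the median of the list was -0.16, with loess-normalized values -0.19. Macrophage markers as a list had a median of -0.34 on the same arrays, and the part of macrophage content in the LXR values was not tested.

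PPAR target genes had 0 past the threshold (limma) and 1 higher and 0 lower at an unadjusted p under 0.05 among the 12 tested of 18. Over all tested genes 7.03% stood on the higher and 11.8% on the lower side. The median of the PPAR targets was -0.08, and of the opposite sign, 0.02 and 0.03, with quantile- and loess-normalized values. Slc25a20, the carnitine carrier of the mitochondrial membrane, stood at 6.05 and 6.37 against 6.67 and 6.81, a difference of 0.53 ± 0.21. Plin2, which coats lipid droplets, differed by -0.55 ± 0.23, the fatty acid carrier gene Fabp5 by -0.59 ± 0.37 and the lipid uptake receptor gene Cd36 by -0.27 ± 0.20. The levels of Fabp5 overlapped, and its lowest, 9.98, was on CX3CR1bright replicate 2.

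Retinoic acid receptors bind vitamin A acid and pair with RXR. Rara (cluster 17256242) stood at 6.71 and 6.47 in CX3CR1low and at 5.99 and 5.72 in CX3CR1bright, with no overlap. The difference was -0.73 ± 0.21 (SE), a ratio of 1.66, with limits of -1.26 to -0.20 (limma, adjusted p = 0.176), and leaving out single arrays gave -0.86 to -0.60. Rarg, the retinoic acid receptor best known from epidermis, had the opposite sign, at 6.02 and 5.85 against 6.24 and 6.15, a difference of 0.26 ± 0.19 with limits of -0.22 to 0.73. Keratinocyte markers were higher on the CX3CR1bright arrays too, by a median of 1.499, and highest on replicate 2. Rarg was lower on that array, at 6.15, than on CX3CR1bright replicate 1, at 6.24, and differed by 0.30 without it. The part of keratinocytes in the Rarg values was not tested. Of the RXR partners, Rxra stood at 5.55 and 5.65 against 5.41 and 5.18 and differed by -0.31 ± 0.20. Rxrb stood at 6.05 and 5.94 against 6.01 and 5.91 and differed by -0.03 ± 0.18, with limits of -0.50 to 0.43 and the opposite sign after quantile normalization and cyclic loess.

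Of 14 genes known as retinoic acid targets 6 were tested, and 0 passed (limma). At an unadjusted p under 0.05 (limma), 2 of the 6 were on the higher and 0 on the lower side, against 7.03% and 11.8% of all tested genes. Tgm2, tissue transglutaminase, stood at 8.60 and 8.22 in CX3CR1low and at 9.22 and 9.14 in CX3CR1bright, a difference of 0.77 ± 0.21 (limma, adjusted p = 0.169). Crabp2, the retinoic acid carrier that feeds the receptors, stood at 6.39 and 6.80 against 7.66 and 9.32, a difference of 1.90 ± 0.56 (limma, adjusted p = 0.178). Its highest level lay on CX3CR1bright replicate 2, where keratinocyte markers were highest. The difference was 1.07 without that array and 2.73 without CX3CR1bright replicate 1, where it passed (limma, adjusted p = 0.0337). Zfp703, a repressor, differed by -0.54 ± 0.22, and Cyp26b1, which breaks down retinoic acid, by -0.45 ± 0.23.

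Among the steroid receptors, the glucocorticoid receptor gene Nr3c1 (cluster 17353985) had tight replicates. It stood at 7.35 and 7.39 in CX3CR1low and at 6.96 and 6.92 in CX3CR1bright, 0.04 apart within each subset. The difference was -0.43 ± 0.18 (SE), with limits of -0.88 to 0.02 (limma, adjusted p = 0.287). The mineralocorticoid receptor gene Nr3c2 stood at 4.45 and 4.66 against 4.59 and 4.25 and differed by -0.13 ± 0.22. The oestrogen receptor gene Esr1, at 5.03 and 5.58 against 4.85 and 5.16, differed by -0.30 ± 0.26, less than the gap of 0.55 between its CX3CR1low pools.

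All 16 glucocorticoid target genes of the list were tested. None passed (limma), and the median was -0.25 (-0.19 with loess-normalized values). At an unadjusted p under 0.05 (limma), 1 was on the higher and 3 on the lower side, 6.25% and 18.8%. Over all tested genes these shares were 7.03% and 11.8%. Klf9, a repressor induced by several nuclear receptors, stood at 6.97 and 7.0015 against 5.99 and 6.33, a difference of -0.83 ± 0.21 (limma, adjusted p = 0.147). The transcription factor gene Cebpd differed by -0.86 ± 0.29 and the haemoglobin scavenger receptor gene Cd163 by -1.10 ± 0.39. Cd163 is also among the macrophage markers used here, and its difference was -0.60 without CX3CR1bright replicate 1 and -1.60 without CX3CR1bright replicate 2. Sgk1, a kinase of ion transport, went the other way at 0.56 ± 0.19.

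The vitamin D receptor gene Vdr showed the widest spread within a subset. It stood at 5.75 and 6.98 in CX3CR1low, 1.23 apart, and at 6.20 and 6.63 in CX3CR1bright. The difference was 0.05 ± 0.44, with limits of -1.06 to 1.16, so even a difference of 1 on the log2 scale either way lies within them. It was -0.56 without CX3CR1low replicate 1 and 0.67 without CX3CR1low replicate 2. Thrb differed by -0.23 ± 0.27 at levels near the array median. Of 8 vitamin D and thyroid hormone targets 3 were bright enough to test: Klf9, given above, the malic enzyme gene Me1 at 1.44 ± 0.48 and the hairless gene Hr, a corepressor of skin, at 0.99 ± 0.42, none past the threshold. Me1 lay below the array median on CX3CR1low replicate 2, at 3.52, and differed by 0.71 without that array and by 2.17 without CX3CR1low replicate 1. Hr differed by 0.41 without CX3CR1bright replicate 2, where keratinocyte markers were highest, and by 1.57 without CX3CR1bright replicate 1.

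Of the remaining orphan receptors, Esrra, which drives mitochondrial genes, stood at 5.87 and 5.63 in CX3CR1low and at 4.83 and 5.41 in CX3CR1bright. The difference was -0.63 ± 0.26 (limma, adjusted p = 0.284), and it was -0.34 without CX3CR1bright replicate 1. Nr2f6 stood at 6.61 and 6.92 against 6.12 and 6.44 and differed by -0.48 ± 0.22, and Nr6a1 stood at 4.85 and 4.80 against 4.43 and 4.63 and differed by -0.30 ± 0.19. None of the 3 overlapped between the subsets, all on the lower side, where 31.5% of all tested genes stood without overlap. The levels of Nr2c1, Nr2c2 and Nr2f2, which encodes COUP-TFII, did overlap. Nr2c1 differed by -0.10 ± 0.25, Nr2c2 by -0.05 ± 0.21 with the opposite sign after quantile normalization and cyclic loess, and Nr2f2 by 0.34 ± 0.25 at levels of 3.89 to 4.61.

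**Figure D4:**
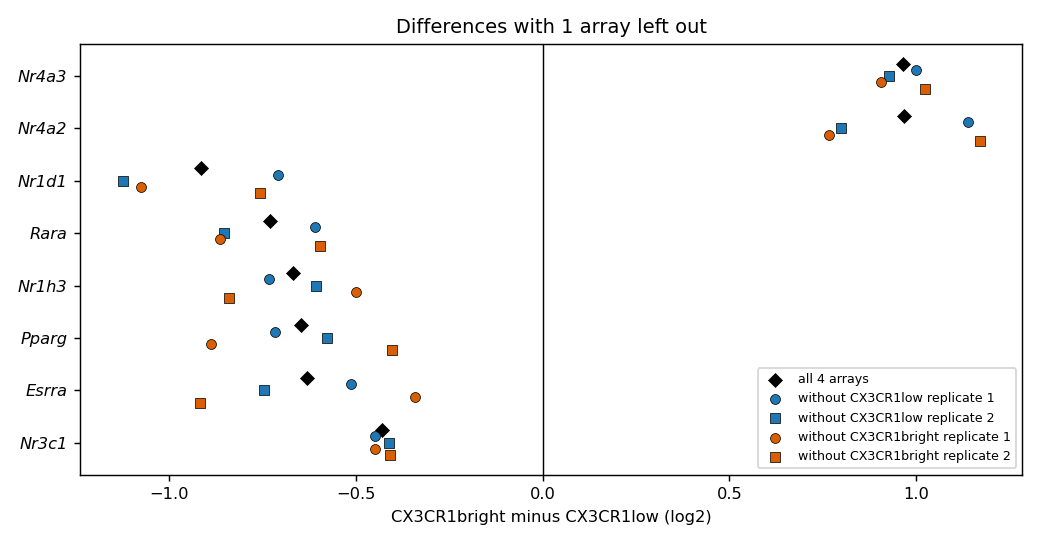
Difference CX3CR1bright minus CX3CR1low (log2) of the 8 receptors with the smallest p, from all 4 arrays (black diamonds) and with each array left out in turn (blue, a CX3CR1low array; orange, a CX3CR1bright array). None of the 8 overlaps between the subsets, so leaving out an array cannot turn a sign. Nr3c1 moves least, from -0.45 to -0.41, and Pparg runs from -0.89 to -0.40.

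Receptors act through coregulators, which open or close chromatin. Of 22 listed 19 were tested, all above the median on all 4 arrays, with 0 past the threshold (limma). At an unadjusted p under 0.05 (limma), 0 were higher and 1 lower, against 7.03% and 11.8% of all tested genes. The list's median was -0.08, or 0.04 and 0.05 with quantile- and loess-normalized values. Ncoa4, a coactivator better known as the receptor that delivers ferritin to lysosomes, stood at 6.38 and 6.49 in CX3CR1low and at 5.52 and 5.51 in CX3CR1bright. The difference was -0.92 ± 0.18 (limma, adjusted p = 0.107). Pelp1 differed by -0.38 ± 0.18, the acetyltransferase gene Kat2b by -0.33 ± 0.21 and Tbl1x, part of the corepressor complex, by 0.37 ± 0.24. The median of all tested genes was -0.07, or -0.01 and 0.02 with the same normalizations.

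Ligands are made and removed inside the tissue, and 15 of 26 genes of this metabolism were tested. Of these 0 passed (limma), and 4 were on the higher and 1 on the lower side at an unadjusted p under 0.05. That is 26.7% and 6.67% of 15 genes, where 7.03% and 11.8% of all tested genes stood there. Ch25h, which makes the LXR ligand 25-hydroxycholesterol, stood at 6.81 and 6.85 in CX3CR1low and at 7.55 and 7.53 in CX3CR1bright, a difference of 0.71 ± 0.18 (limma, adjusted p = 0.149). Averaging all its transcript clusters gave 0.58. Hsd3b7, which carries oxysterols on towards bile acids, stood at 7.61 and 7.99 against 6.35 and 6.59, a difference of -1.33 ± 0.23 (limma, adjusted p = 0.0930). Alox15, which makes oxidised fatty acids that PPAR gamma binds, stood at 3.82 and 3.47 against 5.41 and 4.77. Its difference was 1.45 ± 0.29 (limma, adjusted p = 0.107), and its CX3CR1low levels, close to the array medians, can be background.

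**Figure D5:**
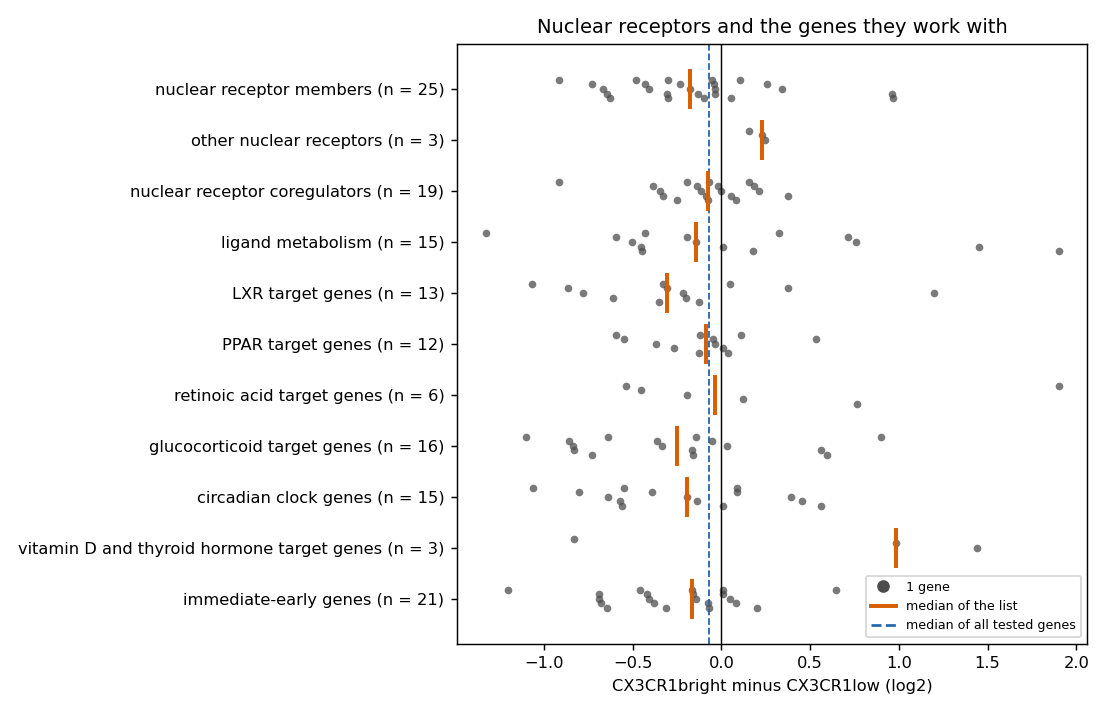
Difference CX3CR1bright minus CX3CR1low (log2) of every tested gene in the receptor list and in the lists of other receptors, coregulators, ligand metabolism, target, clock and immediate-early genes; grey points are genes, orange bars list medians and the dashed line the median of all tested genes, -0.07. The receptors' median is -0.18 and that of LXR targets -0.30, while single genes reach from -1.33 (Hsd3b7) to 1.90 (Crabp2).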

How the data were processed

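The submitters' processing notes name RMA and Affymetrix Expression Console 1.4, and the deposited values are log2 levels. Which genome build the authors used is not stated in these notes. Scanner intensities were not used here. Of 34390 transcript clusters 23521 carried 1 gene symbol, 1814 several and 9055 none; 23328 matched the RefSeq gene table of GRCm38.p6 by Entrez identifier, and 0 symbols changed. The brightest cluster of each gene was kept, and 13133 of 22180 genes with at least 2 arrays above their own median were tested in R 4.3.3 by limma 3.58.1 (linear fit, moderated two-sided test, Benjamini-Hochberg over all tested genes). The fit had 2 residual and 3.28 prior degrees of freedom. Precision is limited by having 2 arrays a subset, and each p-value reflects differences between pools. Named genes are all members found, the 4 genes with the smallest p of each other list, and Cx3cr1 and the cell type markers; Pgr and Nr1h4 were named after their values were seen. The members and lists were chosen with earlier results of these data known. Simulated data had the means of the 13133 genes, variances drawn from the fitted prior and 200 genes raised in each of 5 runs. On them the fit called 1.2% of genes given a log2 shift of 1, 70.4% of those given 2 and 90.0% of those given 3. Among 64665 unchanged genes it called 27. These shares depend on how many genes are changed and need not hold for the real data. Alternatives changed the filter, the cluster rule, the scaling, the variance prior, the block and the arrays.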

Additional observations from a re-analysis of the deposited data

How the results depend on the processing

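The count of 0 receptors past the threshold was 2 with the stricter filter and 1 under an intensity trend, and 0 under the other alternatives, with each array left out included. Over all tested genes the count of 18 was 1 without a filter, after quantile normalization and under a robust prior, 435 with the stricter filter, 33 after cyclic loess, 308 under a trend, and 0 to 154 with 1 array left out (154 without CX3CR1bright replicate 1, 0 without any of the others). With 1 array left out, the receptors at an unadjusted p under 0.05 (limma) numbered 1 to 2 on the higher side (1 without CX3CR1low replicate 2) and 0 to 3 on the lower (0 and 2 without CX3CR1low replicates 1 and 2). Against the 75th percentile 16 receptors stood above by their mean in place of 25. Signs turned only for members with differences from -0.23 (Thrb) to 0.05 (Vdr) on all 4 arrays. After quantile normalization and cyclic loess Rora was at 0.0181 and 0.0677, Rxrb at 0.0523 and 0.0909 and Thra at 0.0513 and 0.0913. Nr2c2 was at 0.0453 and 0.0807. With 1 array left out, values ran from -0.0816 to 0.0072 for Rora, -0.0897 to 0.02 for Rxrb, -0.24 to 0.16 for Thra, -0.22 to 0.11 for Nr2c2, -0.32 to 0.12 for Nr2c1, -0.30 to 0.0363 for Nr3c2, -0.55 to 0.0898 for Thrb and -0.56 to 0.67 for Vdr. The replicate numbers are not said to pair litters across subsets; deviations of same-numbered arrays correlated at 0.16. With the replicate number as a block 0 receptors and 0 of all genes passed (limma; 1004 higher and 1633 lower at an unadjusted p under 0.05), and Nr4a3 had an adjusted p of 0.154. Of the partner genes named, Ncoa4, Hsd3b7, Ch25h, Abcg1, Pltp, Klf9 and Jund passed with the stricter filter, and Hsd3b7, Pltp, Jund and Jun under the trend. The cause of these shifts was not tested.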

Other observations

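The other nuclear receptor genes of the mouse were mostly near background in these pools. Of 19 listed 16 were measured, and 1, Hnf4a, a receptor of liver and gut, stood above the median on all 4 arrays, at 4.23 and 4.25 in CX3CR1low and 4.45 and 4.34 in CX3CR1bright. Nr1i3 and Nr2f1 were bright enough to be tested and differed by 0.24 ± 0.19 and 0.23 ± 0.22, with 0 of the 3 past the threshold (limma, 0 at an unadjusted p under 0.05). On all 4 arrays 10 of the 16 lay below the median, among them the progesterone receptor gene Pgr at 2.73 to 2.94 and the bile acid receptor gene Nr1h4 at 2.40 to 3.11.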
